A study of Mus musculus with 12 samples.

Results

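The genes described here are 8 secreted antagonists of Wnt signalling: the secreted frizzled-related proteins Sfrp1, Sfrp2, Sfrp4, Sfrp5 and Frzb, the Dickkopf family members Dkk2 and Dkk3, and Wnt inhibitory factor 1 (Wif1). They were taken by symbol, and each matched 1 of the 46983 gene rows in both expression tables. The mice were on a background labelled BL6/C57 and came in 2 genotypes, control (MCM/+) and Wls fl/fl (MCM/+ Wls fl/fl), where MCM is a tamoxifen-dependent Cre recombinase and Wls encodes the carrier that Wnt proteins need to leave the cell. In every group the mice carried MCM, received tamoxifen 3 times from postnatal day 1 to day 3, underwent infarction surgery at day 2 after birth and were collected 2 weeks after it, so that no group lacked Cre, tamoxifen or injury. Each heart gave cardiomyocytes (CM) and interstitial cells (NonCM), with 3 libraries for each of the 4 combinations of genotype and fraction. The promoter that drives MCM is not given in the sources used here, and the labels do not state which CM and NonCM libraries came from the same heart.

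Wnt proteins are secreted lipid-modified ligands that act on Frizzled receptors, with the co-receptors Lrp5 and Lrp6 in the branch that stabilises beta-catenin, and with Ror and Ryk receptors in other branches. Secreted frizzled-related proteins carry a cysteine-rich domain like that of Frizzled and bind Wnts outside the cell. Wif1 also binds Wnts directly, through a domain of a different kind. Dickkopf proteins act on the receptor side, where Dkk2 binds Lrp5 and Lrp6, while Dkk3 is a divergent family member whose part in Wnt signalling is less settled. In the injured heart, fibroblasts are a known source of several of these proteins.

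Recovered reads numbered 5171769 to 9775856 in the CM libraries, and 8608352 to 10281214 in the NonCM libraries apart from NonCM control replicate 1, which held 1160146. One read in that shallow library equals a normalized read count of 5.54, so low genes are poorly measured there. Wls itself read 243, 201 and 210.2 normalized counts in CM controls and 91.6, 57.3 and 93.9 in CM Wls fl/fl libraries (log2 difference -1.45, limma adjusted p = 0.00389). In NonCM, Wls read 427, 374 and 407 in controls and 356, 323 and 316 in Wls fl/fl libraries (log2 difference -0.28, limma adjusted p = 0.0831). In every group replicate 3 lay close to a weighted mean of the other 2 libraries: its mean squared residual was 1.01 to 1.18 times the counting variance, against 1.11 to 2.03 for replicates 1 and 2, where only CM Wls fl/fl replicate 1 (1.11) lay closer than the third of its group (1.17). Calls are therefore also given without replicate 3. The fractions were not pure by their markers: 16 cardiomyocyte genes took 11.1% of reads in CM controls and 7.60% in NonCM controls, while 14 fibroblast genes took 0.159% and 1.42%.

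Levels in the controls were first compared between the fractions. Sfrp1, Sfrp2, Frzb and Dkk3 were higher in NonCM controls than in CM controls, and Wif1 was lower. All 5 of the genes that could be tested were called at an adjusted p under 0.05 in the joint edgeR fit of recovered reads, where 55.3% of all tested genes were called (28.1% higher in NonCM and 27.2% lower). Sfrp4, Sfrp5 and Dkk2 had too few reads to enter that test. The 2 tables were scaled separately, so levels across fractions are given here in RPM, the reads of a gene for each 1000000 recovered reads of its library.

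Sfrp1 (chromosome 8, 23411502 to 23449632, plus strand, mm10) was the most abundant of the 8 in NonCM. It read 8.40, 9.09 and 6.60 RPM in CM controls and 81.0, 96.4 and 89.4 in NonCM controls. Every NonCM library thus lay far above every CM library. How many of all genes separate in this way between the fractions was not counted, here or for the genes below. The joint fit put the log2 difference at 3.27 (edgeR adjusted p = 3.92e-15), and the ratio of mean levels was 11.1. Frzb (chromosome 2, 80411970 to 80447625, minus strand), a secreted frizzled-related protein first known from cartilage, read 1.94, 3.09 and 1.84 RPM in CM controls and 19.0, 17.0 and 16.8 in NonCM controls. Its groups stood apart as well, with a log2 difference of 2.67 (edgeR adjusted p = 3.04e-10). Sfrp2 (chromosome 3, 83766321 to 83774316, plus strand), which is also known to act in collagen processing, had only 1, 0 and 5 reads in the CM controls, against 9, 33 and 47 in NonCM controls. Its log2 difference of 3.49 (edgeR adjusted p = 4.00e-06) rests on those 6 CM reads, and it was 5.25 without CM control replicate 3, which held 5 of them. The ratio of pooled RPM was 13.7 with a 95% exact interval of 6.04 to 38.3 that covers counting error only. An exon of Sfrp2 overlaps the antisense gene Gm26771, whose own mean normalized count was 0.170 in CM and 0 in NonCM. Whether the authors counted by strand is not given in the sources used here.

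Dkk3 (chromosome 7, 112116017 to 112159057, minus strand) was the second most abundant member in NonCM per length. It read 7.27, 5.03 and 5.06 RPM in CM controls and 42.2, 25.7 and 32.6 in NonCM controls, a log2 difference of 2.14 (edgeR adjusted p = 3.01e-07). The groups did not overlap, but NonCM controls spread more for Dkk3 than for Sfrp1 or Frzb. Wif1 (chromosome 10, 121033960 to 121100650, plus strand) went the other way. It read 7.91, 8.51 and 9.67 RPM in CM controls and 10.3, 3.79 and 5.72 in NonCM controls. The value of 10.3 came from 12 reads in the shallow library and lay above all CM values, so the groups overlapped. The joint fit nevertheless called Wif1 lower in NonCM, with a log2 difference of -1.0 (edgeR adjusted p = 0.000287), and without that shallow library the difference was -1.12 (edgeR adjusted p = 4.13e-05). In Wls fl/fl hearts, which entered that fit but not this contrast, Wif1 read 7.54, 7.37 and 7.98 RPM in CM and 4.86, 5.45 and 5.81 in NonCM, with no overlap.

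**Figure D1:**
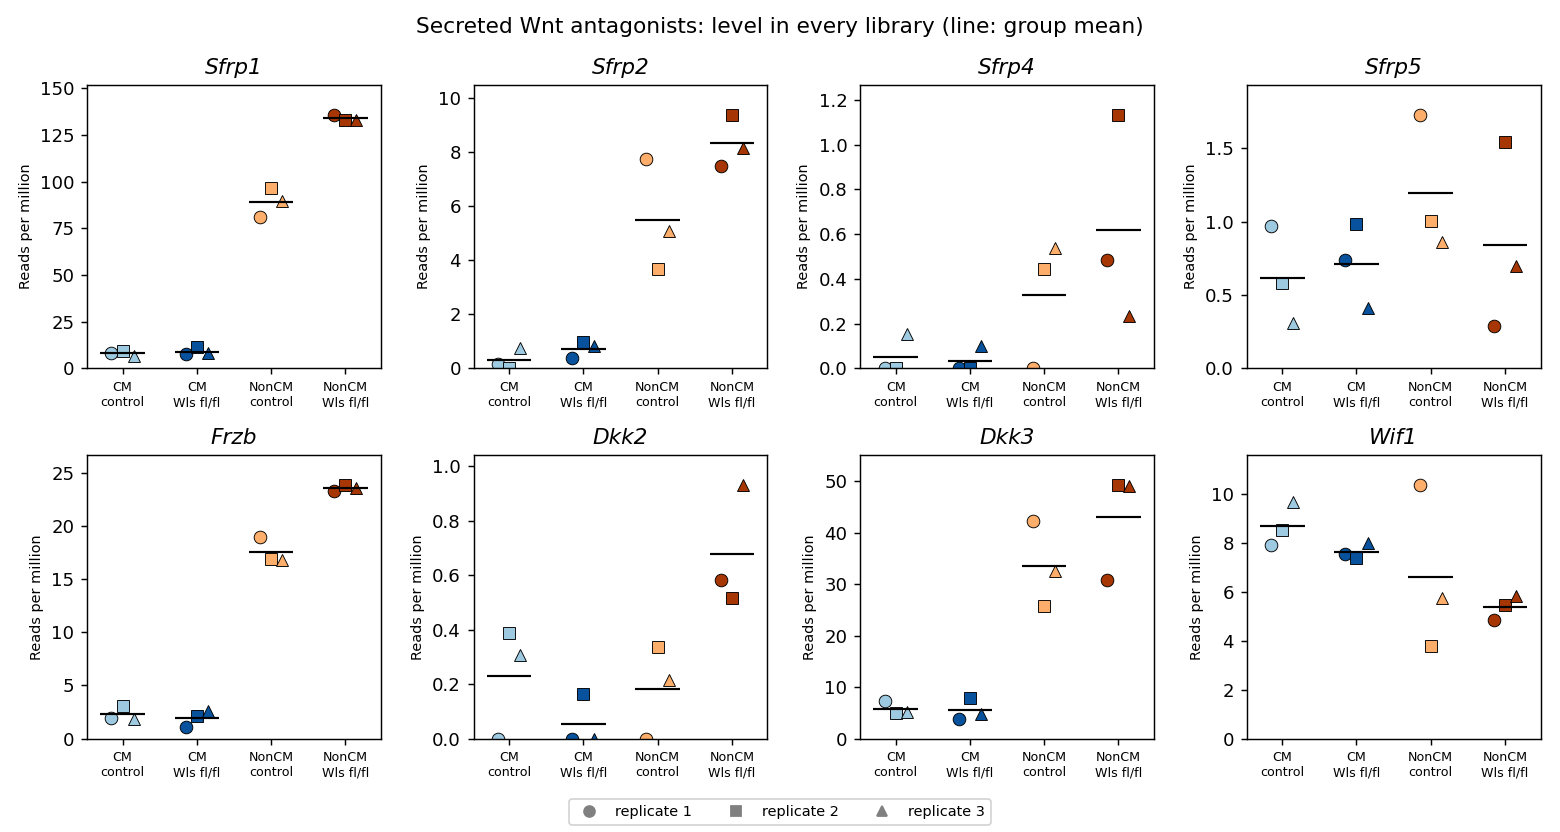
Reads for each 1000000 recovered reads, RPM (linear axis from 0, a scale of its own for each gene) for the 8 antagonists in the 4 groups; each point is 1 library, its shape gives the replicate number, and the line is the mean of 3. Sfrp1, Sfrp2, Frzb and Dkk3 lie higher in every NonCM library than in every CM library, while Wif1 in CM controls overlaps NonCM controls through the replicate at 10.3.

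Promoter sequence is shown for 2 genes that were high in NonCM, Sfrp2 and Frzb, and for Wif1, which was not, so that their windows can be compared. Of the 8 genes, 5 (Sfrp2, Sfrp5, Frzb, Dkk2 and Wif1) had an entry among the RefSeq promoters of GRCm38.p6, each running from 250 bases before to 50 bases after the gene start that RefSeq gives. That start equals the GENCODE start used for the positions above for Sfrp2, Sfrp5 and Dkk2, and lies 229 bases (Frzb) and 44 bases (Wif1) inside the GENCODE gene. Capitals mark CG dinucleotides, and each line reads 5′ to 3′ on the strand of the gene. The windows are chr3:83766071-83766370 (plus strand) for Sfrp2, chr2:80447347-80447646 (minus strand) for Frzb and chr10:121033754-121034053 (plus strand) for Wif1.
Sfrp2: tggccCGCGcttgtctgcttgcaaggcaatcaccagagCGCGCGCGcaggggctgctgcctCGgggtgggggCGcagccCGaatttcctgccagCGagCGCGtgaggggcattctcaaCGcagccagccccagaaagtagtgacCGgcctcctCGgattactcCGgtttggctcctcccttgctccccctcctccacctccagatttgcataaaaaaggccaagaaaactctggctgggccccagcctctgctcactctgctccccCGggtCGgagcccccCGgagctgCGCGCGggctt
Frzb: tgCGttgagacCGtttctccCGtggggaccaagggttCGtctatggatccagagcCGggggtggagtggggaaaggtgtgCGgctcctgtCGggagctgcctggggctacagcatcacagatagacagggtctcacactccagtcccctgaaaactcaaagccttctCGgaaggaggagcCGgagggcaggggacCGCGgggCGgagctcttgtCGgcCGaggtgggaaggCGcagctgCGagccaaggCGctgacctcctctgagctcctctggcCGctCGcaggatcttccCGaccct
Wif1: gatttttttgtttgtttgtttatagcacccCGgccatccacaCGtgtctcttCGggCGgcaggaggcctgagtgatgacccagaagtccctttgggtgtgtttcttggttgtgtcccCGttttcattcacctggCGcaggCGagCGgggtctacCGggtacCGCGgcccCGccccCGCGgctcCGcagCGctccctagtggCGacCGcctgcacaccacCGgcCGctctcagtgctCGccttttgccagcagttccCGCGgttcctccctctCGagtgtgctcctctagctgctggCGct
The 3 windows hold 22, 20 and 25 CG dinucleotides, and those of Sfrp5 and Dkk2 hold 15 and 11, against a median of 7 over 32851 RefSeq promoter windows of this length. Of all windows, 26.5% hold 20 or more and 41.4% hold 11 or more. The windows of Sfrp2 and Frzb, which were higher in NonCM, hold similar counts to that of Wif1, which was lower. Sfrp1 and Dkk3, also higher in NonCM, had no window. A link between these counts and the fraction levels was not tested. The TCF/LEF letters CTTTGAA and CTTTGAT, searched on both strands, were in none of the 5 windows and in 8.65% of all windows. The TEAD letters GGAATG were in none of the 5 and in 14.7% of all. TATAAA, found in 13.6% of windows, was present in Dkk2 at -32 from the RefSeq start and, on the opposite strand, in Wif1 at -232. The letters CCAAT, found in 37.4% of windows on either strand, were present in Sfrp5 and Dkk2.

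Scaled by exon length, the makeup of this antagonist group differed between the fractions. In NonCM controls the order in RPKM (RPM for each kilobase of exon) was Sfrp1 at 20.3 ± 1.76 (SD, n = 3), Dkk3 at 9.97 ± 2.48, Frzb at 5.43 ± 0.368, Wif1 at 2.73 ± 1.39, Sfrp2 at 2.56 ± 0.962, Sfrp5 at 0.630 ± 0.243, Sfrp4 at 0.0787 ± 0.0690 and Dkk2 at 0.0495 ± 0.0458. The ranges of Wif1 and Sfrp2 overlapped, as did those of Sfrp4 and Dkk2, while the other neighbours were separate. In CM controls Wif1 came first at 3.58 ± 0.367, followed by Sfrp1 at 1.84 ± 0.294 and Dkk3 at 1.72 ± 0.382, whose ranges overlapped, and by Frzb at 0.708 ± 0.215. Sfrp5, Sfrp2, Dkk2 and Sfrp4 came below, at 0.326 to 0.0122, and each overlapped its neighbour. Wif1 made up 42.8% ± 5.27 of the summed length-scaled level of the 8 genes in CM controls and 6.37% ± 2.70 in NonCM controls, whereas Sfrp1 made up 21.8% ± 3.17 and 49.1% ± 8.12. Summed over the 8, RPM were 26.0 ± 1.13 in CM controls and 154 ± 7.25 in NonCM controls.

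**Figure D2:**
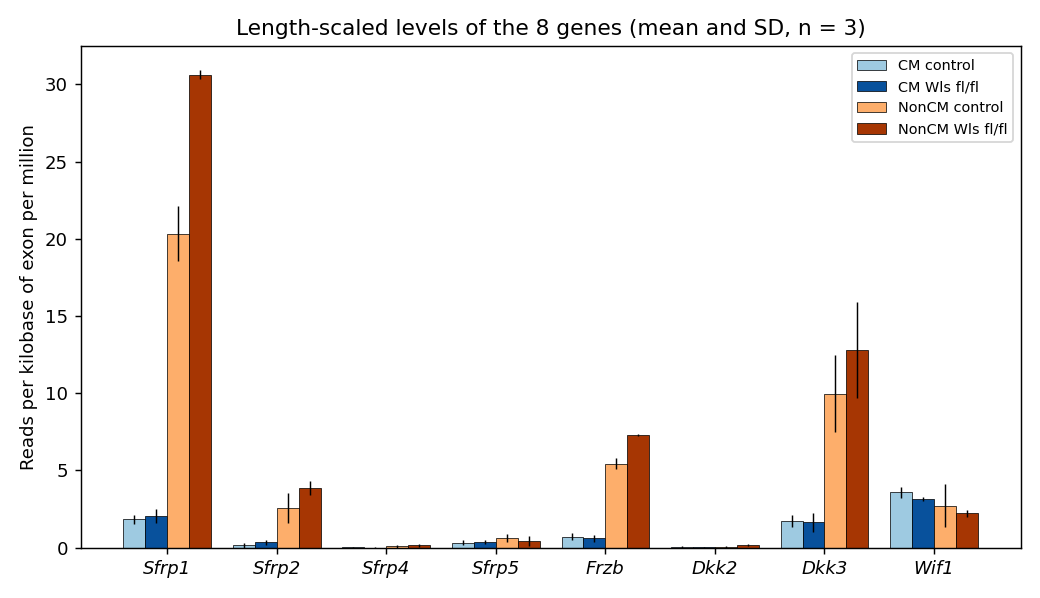
RPKM for the 8 genes in the 4 groups (linear axis from 0); bars are means of 3 libraries and whiskers are SD. Sfrp1 is the tallest bar in NonCM at 20.3 in controls and 30.6 in Wls fl/fl, while Wif1 is the tallest in CM controls at 3.58.

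Relative to the cardiomyocyte genes, Wif1 differed less between the fractions. Per 10000 units of the summed normalized count of 16 cardiomyocyte markers, Wif1 read 0.780 ± 0.0785 in CM controls and 0.859 ± 0.397 in NonCM controls, with overlapping ranges. The highest NonCM control, 1.29, was the shallow library with 12 Wif1 reads, and the other NonCM controls read 0.518 and 0.765. In Wls fl/fl hearts the same ratio was 0.675 ± 0.0566 in CM and 0.836 ± 0.0827 in NonCM, and these ranges, 0.612 to 0.721 and 0.743 to 0.902, did not overlap. Fewer cells of a type and less RNA per cell cannot be told apart in such bulk fractions. Relative to fibroblast markers, Sfrp1 read 0.507% ± 0.0869 of the summed level of 14 fibroblast genes in CM controls and 0.625% ± 0.0381 in NonCM controls. Those ranges, 0.416% to 0.590% and 0.583% to 0.658%, overlapped. Dkk3 read 0.320% to 0.445% of those markers in CM controls and 0.175% to 0.304% in NonCM controls, with no overlap and lower in NonCM. Frzb overlapped at 0.116% to 0.201% and 0.116% to 0.136%.

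In the NonCM fraction, 2 of the antagonists, Sfrp1 and Frzb, were called higher in Wls fl/fl hearts than in controls by limma. Both calls were lost in some of the other fits given below. Sfrp2 and Dkk3 had higher means that did not pass the test, and Wif1 had a lower mean that did not pass. Of the 8 genes, 5 passed the minimum mean normalized count of 10, and 2 of these 5 were called by limma on log2(value + 1), both higher, where 4.51% of all 13271 tested genes were called (2.47% higher). At an unadjusted p under 0.05 there were 3 of the 5 (Sfrp1, Sfrp2 and Frzb), against 19.3% of all tested genes. The median log2 difference of the 5 was 0.38, against 0.017 for all tested genes.

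Sfrp1 read 521, 659 and 599.6 normalized counts in NonCM controls and 886, 861 and 857 in NonCM Wls fl/fl libraries. The lowest Wls fl/fl library lay above the highest control, and the Wls fl/fl libraries lay much closer to each other than the controls did. The lowest control, 521, came from 94 reads in the shallow library, so counting error adds to the spread of the controls. The means, 593 ± 69.1 and 868 ± 15.5 (SD, n = 3), differed by a factor of 1.46, or 0.55 on the log2(value + 1) scale (SE 0.0822, limma adjusted p = 0.009). edgeR, limma-voom and DESeq2 on recovered reads also called it, at 0.49, 0.49 and 0.50 log2, with adjusted p of 0.000188, 0.000188 and 6.46e-06. The authors' deposited table gives a log2 fold change of 0.51 with an adjusted p of 6.06e-06. The call was lost without replicate 3: with that library of both genotypes left out, which leaves 2 a group, the difference was 0.57 in limma (adjusted p = 0.304) and 0.49 in edgeR (adjusted p = 0.0887). In that design limma called 0 of 13278 genes (1242 at an unadjusted p under 0.05) and edgeR 33. It also missed the threshold by limma without control replicate 3 (adjusted p = 0.0501), without Wls fl/fl replicate 2 (adjusted p = 0.0592) and without Wls fl/fl replicate 3 (adjusted p = 0.0739).

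Frzb read 122, 116 and 113 normalized counts in NonCM controls and 153, 154 and 152 in NonCM Wls fl/fl libraries. Both groups were tight and did not overlap. Groups that do not overlap, with Wls fl/fl higher, were seen for 13.9% of the tested genes. Means of 117 ± 4.58 and 153 ± 1.34 gave a log2 difference of 0.38 (SE 0.0903, limma adjusted p = 0.0472), which is close to the threshold. edgeR and limma-voom called it at 0.40 log2 (adjusted p = 0.0114 and 0.0107), and DESeq2 did not (adjusted p = 0.137), nor does the authors' deposited table (0.41, adjusted p = 0.174). The limma call was also lost with TMM scaling (limma adjusted p = 0.0525) and without the filter on the mean (limma adjusted p = 0.0725). Without replicate 3 of both genotypes the difference was 0.37 in limma (adjusted p = 0.506) and 0.38 in edgeR (adjusted p = 0.303). With a single library left out, the call held by limma only without the shallow control replicate 1 (adjusted p = 0.00766), and the other 5 gave adjusted p of 0.0768 to 0.213.

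Sfrp2 read 49.9, 25.2 and 34.0 normalized counts in NonCM controls and 49.0, 60.5 and 52.3 in Wls fl/fl libraries. Only the shallow control replicate 1, at 49.9 from 9 reads, reached into the range of the Wls fl/fl libraries. The limma difference was 0.60 (SE 0.245, adjusted p = 0.215), while edgeR and limma-voom on recovered reads gave 0.78 and 0.79 with adjusted p of 0.0161 and 0.0162. The limma difference was 0.85 (adjusted p = 0.0054) without control replicate 1 and 0.37 (adjusted p = 0.349) without control replicate 2. Of the 5 tested genes, 3 (Sfrp1, Sfrp2 and Frzb) were thus called higher by edgeR and by limma-voom, where 5.73% and 5.67% of all tested genes were called higher, and 1 (Sfrp1) by DESeq2.

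Dkk3 read 272, 175 and 219 normalized counts in NonCM controls and 202, 318 and 315 in Wls fl/fl libraries. Wls fl/fl replicate 1 lay below control replicates 1 and 3, so the groups overlapped, and the log2 difference was 0.32 (SE 0.199, limma adjusted p = 0.433). Leaving out control replicate 2 gave 0.16, and leaving out replicate 1 of Wls fl/fl gave 0.53, neither of which passed. Wif1 read 66.5, 25.9 and 38.4 in NonCM controls and 31.8, 35.3 and 37.4 in Wls fl/fl libraries, all of which fell within the range of the controls. Its log2 difference was -0.22 (SE 0.306, limma adjusted p = 0.748), and it was 0.13 without the shallow control replicate 1.

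**Figure D3:**
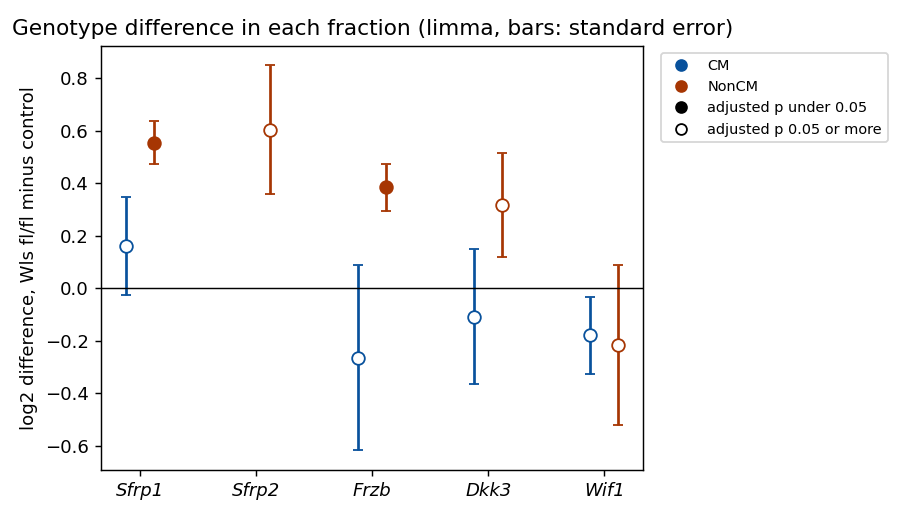
Log2 difference between Wls fl/fl and control in each fraction for the antagonists that entered the limma test; bars are standard errors, and filled points have an adjusted p under 0.05. Sfrp1 (0.55) and Frzb (0.38) in NonCM are the filled points, and Sfrp2 has no CM point because its mean there was under 10.

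Fibroblast markers moved in the same direction in NonCM. All 14 fibroblast genes were tested and all 14 were higher, of which 11 were called, with a median log2 difference of 0.50. Their share of reads ran from 1.39% to 1.46% in controls and from 1.96% to 2.06% in Wls fl/fl libraries. Markers of activated fibroblasts were called higher for 3 of 9 tested genes (median 0.72), and their mean share went from 0.117% to 0.181% of reads. Of the 9, 7 were higher and 2 lower. The lower were Acta2 (-0.25, limma adjusted p = 0.0730) and Comp (-0.28, limma adjusted p = 0.451). Cardiomyocyte markers were lower for 16 of 16, with 11 called and 15 at an unadjusted p under 0.05 (median -0.28). Their share went from 7.33% to 7.99% of reads down to 6.32% to 6.55%. Epicardial markers were higher for 10 of 10, with 2 called and 8 at an unadjusted p under 0.05 (median 0.60). Macrophage markers were higher for 11 of 11, with 2 called and 10 at that level (median 0.33). The mean shares of these 2 lists were 0.0161% and 0.138% of reads in controls. None of the fibroblast, cardiomyocyte, epicardial or macrophage genes was at 0 in any library.

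Set against those fibroblast genes, the difference in Sfrp1 was smaller. As a percentage of their summed normalized count, Sfrp1 read 0.625 ± 0.0381 in controls and 0.665 ± 0.0242 in Wls fl/fl libraries, and the ranges, 0.583 to 0.658 and 0.647 to 0.692, overlapped. The limma difference relative to these markers was 0.09 (adjusted p = 0.298). This scaling moved the median of all tested genes to -0.44. Of all tested genes 61.5% were called, 0.46% higher and nearly all of the others lower. Dividing each library by its marker sum shifts all genes nearly alike. The place of Sfrp1 above that median was therefore fixed beforehand and is no separate result. Frzb relative to the same markers was -0.08 and Dkk3 was -0.15, both opposite in sign to the unscaled values. The result depended on which fibroblast genes were used. The 5 collagen genes of the list made up 52.0% ± 2.39 of its sum in controls and 58.3% ± 1.35 in Wls fl/fl libraries. Leaving them out therefore raises the scaled genotype difference of every gene by about the same amount, Sfrp1 included. Which of the 2 sums follows fibroblast content better was not tested. Relative to the 9 other fibroblast genes, an alternative chosen after seeing the data, Sfrp1 read 1.28% to 1.32% in controls and 1.58% to 1.60% in Wls fl/fl libraries, with no overlap, and the log2 difference was 0.29 (limma adjusted p = 0.0354). Scaling to these 9 genes moved the median of all genes to -0.24, and 15.8% of all tested genes were called, 0.678% higher. Frzb relative to these 9 was 0.12 and no longer called. Beyond these ratios, the part of the marker shares in the rise of Sfrp1 and Frzb was not tested.

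**Figure D4:**
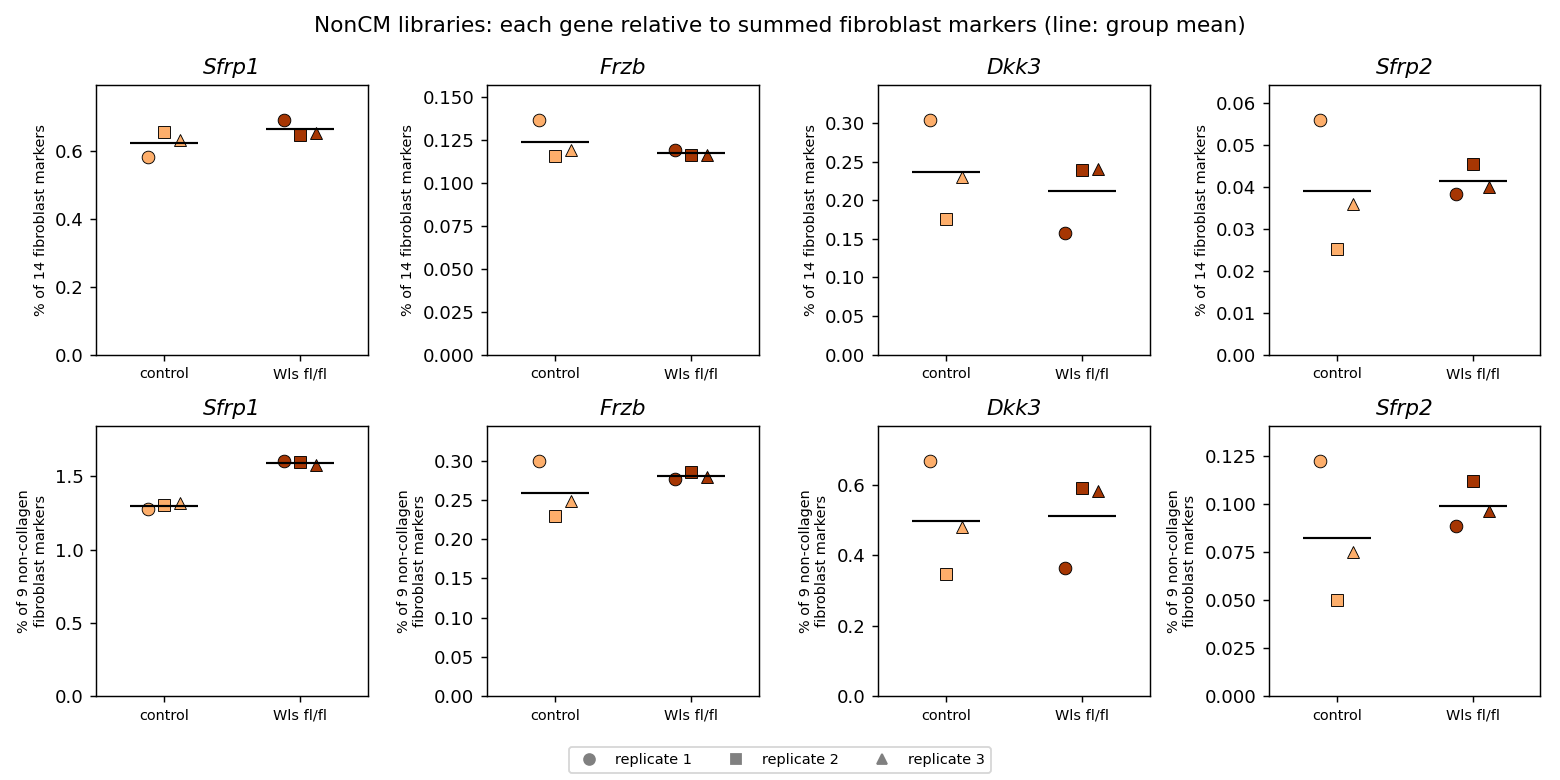
Normalized count of Sfrp1, Frzb, Dkk3 and Sfrp2 in NonCM libraries as a percentage of the summed normalized count of all 14 fibroblast markers (top) or of the 9 that are not collagens (bottom), on linear axes from 0; each point is 1 library and the line is the mean of 3. Sfrp1 overlaps between genotypes in the top row and is separate in the bottom row (1.28% to 1.32% against 1.58% to 1.60%), while the other 3 genes overlap in both rows.

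In the CM fraction no antagonist was called. Sfrp1, Frzb, Dkk3 and Wif1 passed the minimum mean, and 0 of these 4 were called by limma, with 0 at an unadjusted p under 0.05, where 0.0921% of 11944 tested genes were called and 8.74% had such an unadjusted p. edgeR, DESeq2 and limma-voom called 0 of the 4 as well. Their median log2 difference was -0.14, against 0.0002 for all tested genes.

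Sfrp1 read 53.1, 58.0 and 41.8 normalized counts in CM controls and 48.2, 71.9 and 52.4 in CM Wls fl/fl libraries, a log2 difference of 0.16 (SE 0.186, limma adjusted p = 0.844). Frzb read 12.3, 19.7 and 11.7 in controls and 7.05, 13.5 and 16.2 in Wls fl/fl libraries, a log2 difference of -0.26 (SE 0.353, limma adjusted p = 0.871). Dkk3 read 46.0, 32.1 and 32.1 in controls and 24.7, 50.02 and 30.4 in Wls fl/fl libraries, a log2 difference of -0.11 (SE 0.256, limma adjusted p = 0.937). All 3 genes had overlapping groups. Wif1, the leading antagonist of this fraction per length, read 50.1, 54.3 and 61.3 in controls and 48.2, 46.9 and 50.5 in Wls fl/fl libraries. Its groups touched, since the highest Wls fl/fl library lay just above the lowest control, and the log2 difference was -0.18 (SE 0.146, limma adjusted p = 0.755). Fibroblast markers took 0.159% ± 0.00457 of reads in CM controls and 0.162% ± 0.0174 in CM Wls fl/fl libraries.

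The effect of genotype was not shown to differ between the fractions for any antagonist. In the joint edgeR fit 0 of 5 had a called interaction, where 1.41% of 13993 genes were called. At an unadjusted p under 0.05 there were 0 of the 5, against 1893 of the 13993 genes. limma-voom called 0 as well, and so did DESeq2, which gave an adjusted p for Sfrp1 alone. The NonCM difference minus the CM difference was 0.31 for Sfrp1 (edgeR adjusted p = 0.496), 0.52 for Frzb (edgeR adjusted p = 0.509) and 0.52 for Dkk3 (edgeR adjusted p = 0.602). For Sfrp2 it was -0.36 (edgeR adjusted p = 0.897) and for Wif1 it was 0.16 (edgeR adjusted p = 0.864). The rise of Sfrp1 thus passed the test in NonCM and not in CM, while the difference between the fractions did not pass.

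Sfrp4, Sfrp5 and Dkk2 were near the limit of detection throughout, and counts of 3 or fewer reads are treated here as the floor of a library. Sfrp4 (chromosome 13, 19623104 to 19632994, plus strand), a member best known from bone, had 0, 4 and 5 reads in NonCM controls and 5, 11 and 2 in NonCM Wls fl/fl libraries, and 1 read in each set of 3 CM libraries. The pooled ratio of RPM, Wls fl/fl over control, was 1.35 in NonCM with a 95% exact interval of 0.578 to 3.42. Sfrp5 (chromosome 19, 42197971 to 42202252, minus strand), a binder of noncanonical Wnts better known from fat tissue, had 2, 9 and 8 reads in NonCM controls and 3, 15 and 6 in Wls fl/fl libraries, a ratio of 0.856 (0.449 to 1.65). In CM it had 6, 3 and 2 reads in controls and 4, 6 and 4 in Wls fl/fl libraries, a ratio of 1.07 (0.450 to 2.60). Its ratio of NonCM over CM in controls was 1.59 (0.720 to 3.71), so an excess in NonCM like that of Sfrp1 was not seen, and the upper bound lay below the pooled ratio of 11.6 for Sfrp1. Dkk2 (chromosome 3, 132085292 to 132180304, plus strand) had 0, 3 and 2 reads in NonCM controls and 6, 5 and 8 in NonCM Wls fl/fl libraries. These groups did not overlap, but the control value of 0 came from the shallow library. A single read there would equal a normalized count of 5.54, within the Wls fl/fl range of 3.33 to 5.98. The pooled ratio of 2.57 had an interval of 0.930 to 8.82, and the gene was under the minimum mean. How many genes under that mean separate in this way was not counted. In CM, Dkk2 had 0, 2 and 2 reads in controls and 0, 1 and 0 in Wls fl/fl libraries. Sfrp2 in CM had 1, 0 and 5 reads in controls and 2, 6 and 8 in Wls fl/fl libraries, a pooled ratio of 2.24 (0.831 to 6.98). Genotype differences of these genes were not detectable at this depth.

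Summed over the 8 genes, RPM in NonCM were 154 ± 7.25 in controls and 216 ± 11.3 in Wls fl/fl libraries, and in CM they were 26.0 ± 1.13 and 25.6 ± 4.85. The order by length-scaled level kept Sfrp1, Dkk3 and Frzb as the leading 3 in NonCM Wls fl/fl hearts, at 30.6 ± 0.310, 12.8 ± 3.14 and 7.29 ± 0.0790 RPKM. Sfrp2 came next at 3.87 ± 0.441, above Wif1 at 2.21 ± 0.197, and their ranges were separate. In CM Wls fl/fl hearts Wif1 led at 3.14 ± 0.130, followed by Sfrp1 at 2.07 ± 0.455, which overlapped Dkk3 at 1.64 ± 0.622.

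Other genes of the pathway were read from lists. In NonCM, 4.51% of all tested genes were called by limma and 19.3% had an unadjusted p under 0.05. Without replicate 3 of both genotypes limma called 0 of 13278 genes there, so none of the NonCM calls below held. Values relative to fibroblast markers are not given for these genes. Of 13 other extracellular Wnt inhibitors, 5 could be tested in NonCM and 1 was called: Igfbp4, an IGF-binding protein that also blocks Wnt co-receptors, rose from 1507 ± 51.4 to 1811 ± 76.7 normalized counts (log2 difference 0.27, limma adjusted p = 0.0263). Of these 5, 2 were higher, 3 were lower and 3 had an unadjusted p under 0.05. The uncalled 2 of those 3 were Gpc3, higher (0.45, limma adjusted p = 0.0784), and Trabd2b, lower (-0.39, limma adjusted p = 0.0596). In CM all 4 tested were lower, with Trabd2b at -0.34 (limma adjusted p = 0.0638). The Dkk co-receptors had 0 of 3 tested genes called, with 1 at an unadjusted p under 0.05. Lrp6 read 1312 ± 65.1 and 1367 ± 65.3, and Lrp5 797 ± 129 and 850.2 ± 30.0. The Frizzled receptors, whose ligand-binding domain the Sfrp proteins resemble, had 0 of 8 called and 4 at an unadjusted p under 0.05. Fzd4, the most abundant of them, read 664 ± 64.4 in controls and 547 ± 17.9 in Wls fl/fl libraries (-0.27, limma adjusted p = 0.0793), and Fzd1 read 178 ± 16.2 and 225 ± 33.4 (0.33, limma adjusted p = 0.177). Of 6 receptors and partners of the noncanonical branch, 2 were called higher in NonCM and 3 had an unadjusted p under 0.05. The called genes were Ror1 (0.55, limma adjusted p = 0.0159) and Ptk7 (0.48, limma adjusted p = 0.0272), with no member lower. Wnt ligands had 0 of 8 tested genes called and 1 at an unadjusted p under 0.05. Wnt5a, the most abundant, read 148 ± 10.01 in controls and 172 ± 11.9 in Wls fl/fl libraries (0.21, limma adjusted p = 0.267). The R-spondins with their receptors and turnover enzymes had 0 of 4 called and 2 at that level, and Lgr4 read 381 ± 19.5 and 329 ± 25.5 (-0.22, limma adjusted p = 0.167). Of 9 tested targets of beta-catenin, 1 was called and 4 had an unadjusted p under 0.05. The called gene was Cd44 (0.50, limma adjusted p = 0.0137), which is also a general adhesion receptor. The feedback inhibitors Nkd2 and Axin2 read differences of 0.94 (limma adjusted p = 0.103) and 0.13 (limma adjusted p = 0.81). In CM none of these 7 lists had a called gene.

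The genes whose pattern over the 12 libraries was most like each antagonist were taken by Pearson correlation of log2(RPM + 1), over 12521 genes with a mean of at least 1 RPM. The 12 points share their fraction, depth and hearts, so r is a description only. For Sfrp1 they were Axl, Tnxb and Pcsk6, at an r of 0.998 for each. Axl, a receptor tyrosine kinase, read means of 38.6 and 44.6 RPM in CM and 419 and 569 in NonCM, control first. Frzb was most like Lilrb4a at an r of 0.997 and Shisa5 and Snx5 at 0.996. Dkk3 was most like Gpc3, Thbs1 and Gucy1a3 at 0.992 each, and Gpc3, a glypican from the list of other Wnt inhibitors, read 7.61 and 7.50 RPM in CM and 39.5 and 55.9 in NonCM. Sfrp2 was most like Vcan (0.993), Zmat3 (0.991) and Ptrf (0.99). Wif1 was most like Iigp1 (0.928), Tnnt1 (0.925) and Hsp90ab1 (0.925). Among the antagonists themselves, Sfrp1 and Frzb had an r of 0.989 over the 12 libraries, and Sfrp1 and Wif1 had an r of -0.66.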

How the data were processed

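RNA sequencing libraries of 4 groups (control and Wls fl/fl, CM and NonCM), 3 each, were used as labelled. The labels do not say more of how the 3 libraries of a group arose than 3 hearts per condition, so p-values reflect only how far these libraries spread, which may be technical in part. The submitters' processing notes name STAR, DESeq2 and mm10 without versions. For the counting tool, the annotation and the use of strand the status is: not given in the sources used here. Signal values, as deposited, are normalized read counts, which the authors made per table (1 per fraction) by dividing gene counts by a size factor, and 100% of values came out as whole multiples of 1 read to a tolerance of 0.01 reads. Per the file headers the tables also hold log2 fold changes of the authors with their errors, a test score (the deposited statistic), and raw and adjusted p-values by the authors. The authors' values are quoted only where named.

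Within each fraction limma 3.58.1 (R 4.3.3, trend) was run on log2(value + 1) of all genes with a mean of 10 or more, with Benjamini-Hochberg adjustment at 0.05. The interaction and the contrast of control fractions came from edgeR 4.0.16 (quasi-likelihood, TMM, filterByExpr) on recovered reads of all 12 libraries. Counts of reads alone are given with 95% exact intervals that cover counting error only. Reads per kilobase used GENCODE M21 exon lengths on GRCm38, the same assembly as mm10, where each of the 8 symbols matched 1 gene. Groups of 3 against 3 cannot reach an exact permutation p below 0.1, and no exact test of a single gene was added. Scripts were tested on simulated data. The genes and lists were chosen with earlier results of these data known. All 8 genes were named, as were, from each other pathway list, up to 4 called genes by smallest p, else the 2 of highest level, and the 3 genes most like each antagonist. A few uncalled pathway genes are named outside that rule, chosen after their values were seen. Alternatives were TMM scaling, other pseudocounts and filters, edgeR, DESeq2 1.42.0, limma-voom, leaving out each library or replicate 3, an adjusted p of 0.1, and scaling to fibroblast markers.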

Additional observations from a re-analysis of the deposited data

How the results depend on the processing

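Of 339 refits of single antagonists, 308 kept direction and side of the threshold, 17 lost a call, 3 gained one and 11 changed sign. All changes of sign concerned differences that had not passed, apart from Frzb in NonCM relative to fibroblast markers (-0.077), where Dkk3 was -0.15. With 1 library left out, log2 differences that changed sign ranged in CM from -0.0078 to 0.28 (Sfrp1), -0.49 to 0.060 (Frzb) and -0.39 to 0.11 (Dkk3), for Wif1 in NonCM from -0.53 to 0.13, and for the interaction from -2.12 to 0.12 (Sfrp2) and -0.11 to 0.30 (Wif1). Without a change of sign, the range was 0.37 to 0.85 for Sfrp2 and 0.16 to 0.53 for Dkk3 in NonCM, and 3.00 to 5.25 for Sfrp2 between fractions. Wif1 in NonCM was 0.031 by limma-voom and 0.021 by edgeR without replicate 3. In NonCM, 2 antagonists were called in the main analysis, 1 with TMM scaling, 1 without the filter, 1 by DESeq2, 0 without replicate 3 (limma and edgeR), 0 relative to fibroblast markers (8157 of all genes called), 1 relative to those that are not collagens (2096), and 0 to 3 with 1 library left out. Over all genes in NonCM the count of 598 became 1120 at an adjusted p of 0.1, 1446 by edgeR, 1477 by limma-voom, 0 (limma) or 33 (edgeR) without replicate 3, and 77 to 1634 with 1 library left out. In CM 11 became 21 at 0.1, 41 without the filter, 18 by DESeq2, 17 by limma-voom, 2 without replicate 3 (limma and edgeR), and 5 to 18 with 1 library left out. The fraction differences of the 5 tested antagonists kept their calls in all 18 alternatives each. The edgeR fit without replicate 3 and the scaling to non-collagen markers were chosen after seeing the data. No paired analysis was made, because the labels do not state which CM and NonCM libraries share a heart. The numbers in the library titles follow the same order of genotypes in both fractions, but a pairing read from that order was not tested. The joint fit therefore treated libraries of the same heart as independent. Depth limits Sfrp4, Sfrp5 and Dkk2 in both fractions and Sfrp2 in CM, and NonCM control replicate 1 limits every low gene of that group.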
